A study of Rattus norvegicus with 4 samples.

Results

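A group of 9 genes known from astrocytes, called glia-like genes here, were followed through the cell types of the rat pituitary: Vim, Gfap, Slc1a3, Slc1a2, Glul, Aqp4, Gja1, Aldoc and Ndrg2. They were chosen by symbol, and all 9 were found among the 30058 genes of the count table. The cells came from anterior pituitaries of Sprague Dawley rats, females at 44 days of age in diestrus and males at 59 days, neither sex treated or genetically modified. For each sex 4 pituitaries were pooled before the cells were dispersed, and the pool was loaded on 2 lanes of a droplet instrument that tags each captured mRNA molecule with a unique molecular identifier (UMI). The 2 lanes of a sex are therefore technical repeats of 1 pool, p-values measure the spread between lanes and not between animals, and sex cannot be told apart from pool and age.

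Folliculostellate cells (FSC) are the stellate cells of the anterior pituitary that make no classical hormone. They contain S100b, send processes between the hormone cells and are coupled to each other by gap junctions. In brain, astrocytes clear glutamate from the extracellular space with the transporters encoded by Slc1a3 and Slc1a2, turn it into glutamine with the synthetase encoded by Glul, move water through the channel encoded by Aqp4, and join into networks through the connexin encoded by Gja1, while their cytoskeleton carries the intermediate filaments vimentin (Vim) and glial fibrillary acidic protein (Gfap). Pituicytes are the astrocyte-like cells of the posterior pituitary (PP), and some of them can come along when the anterior lobe is dissected.

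The 7861 cells held 18955509 to 24048021 UMIs in a lane, with a median of 7971 to 9413 UMIs per cell. Cell types were set by the marker genes of the study, above a threshold found for each gene from its own distribution (Otsu's method). After cells called doublets or outliers of depth or mitochondrial share were removed, 7012 cells of 12 classes were used, among them 2313 FSC, 133 endothelial cells (EC), 551 leukocytes (Le), 361 erythrocytes (E), and the hormone-producing cells (HPC) with 793 corticotropes (C), 240 gonadotropes (G), 88 thyrotropes (T), 1888 somatotropes (S) and 484 lactotropes (L). PP cells (55), pericytes (Per, 50) and melanotropes (Mel, 56) were kept as classes of their own. Between lanes, 30 barcode sequences were shared by 60 cells. The Y-linked gene Eif2s3y gave 0 and 1 UMIs in the female lanes and 2038 and 2100 in the male lanes, as labelled.

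The FSC label rests on 2 of S100b, Fxyd1, Gstm2 and Capn6, which had a UMI in 89.7% to 95.7% of FSC. The PP class rests on 2 of Lhx2, Nkx2-1, Gfap, S100b, Avp and Oxt. Of the 59 cells that met this rule, 57 would otherwise have been FSC, and 55 came from males. Among pituicyte genes outside the rule, Scn7a had a UMI in 65.5% of the PP cells and Rax in 60% of them, against 0.389% and 4.28% of FSC. The list also held Col25a1, Adm, Tbx3 and Six6, whose values are not reported here. Not every gene of the list need set PP apart, since the paper reports Six6 in FSC and all HPC types. The PP class was mixed: the summed level of 7 oligodendrocyte markers was 753 CPM (UMIs of a gene per 1000000 UMIs of a class; range 22.5 to 1445 over lanes), against 45 CPM in FSC, and the myelin gene Mbp had a UMI in 7.27% of the PP cells. The part of such cells in the PP values below was not tested. The female lanes held 3 and 1 of the PP cells used, so that PP values rest on the male lanes. Levels are given in CPM for each lane, and a lower level of a class cannot be told apart from expression in fewer of its cells without the share of cells, which is given as well.

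**Figure D1:**
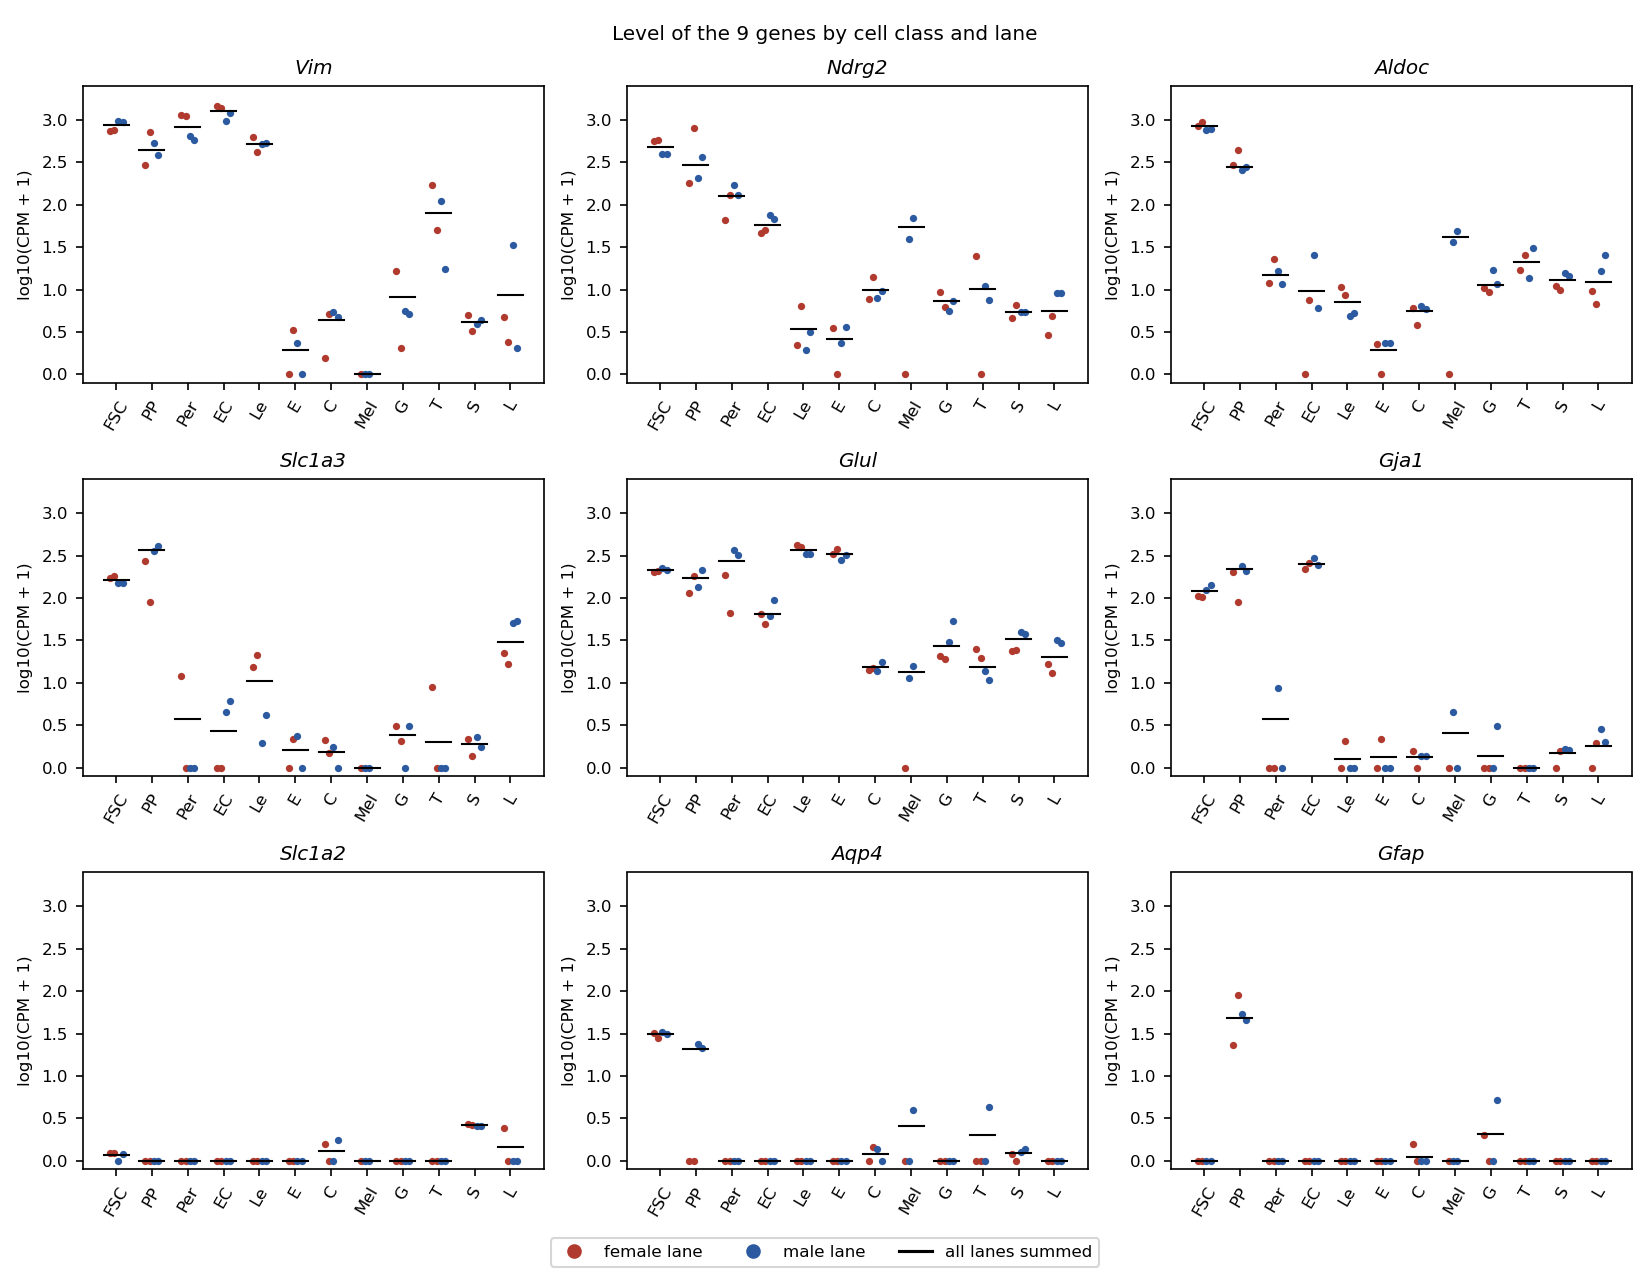
Level of the 9 glia-like genes as log10(CPM + 1) in 12 cell classes, with a point for each lane (red female, blue male) and a bar for all lanes summed. FSC and PP share high levels of Vim, Ndrg2, Aldoc, Slc1a3, Glul and Gja1. Slc1a2 is at most 1.74 CPM in any class and lane. Gfap is at 0 in all FSC lanes, in part because cells with Gfap and S100b were moved to PP.

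Of the filament genes, Vim was abundant in FSC but not particular to them. Gfap was not found in FSC after a PP rule that includes Gfap had taken cells out of them. The level of Vim in FSC was 741 and 765 CPM in the female lanes and 980 and 948 CPM in the male lanes, and 87.6% of FSC had a UMI. EC stood highest, at 1459 and 1385 CPM in the female lanes and 978 and 1199 in the male lanes, and their range overlapped that of FSC. FSC over EC gave a log2 ratio of -0.39 with an SE of 0.31 (adjusted p = 0.319, edgeR quasi-likelihood test), an interval of -0.99 to 0.22. Neither Le nor Per differed from FSC past the limit of an adjusted p of 0.001, with log2 ratios of FSC over them of 0.17 (SE 0.31, adjusted p = 0.652) and 0.28 (SE 0.33, adjusted p = 0.611). PP, at 292 and 714 CPM in the female lanes and 527 and 383 CPM in the male lanes, lay below FSC in every lane, but the log2 ratio of 1.19 (SE 0.35, adjusted p = 0.0206) was short of the limit as well. The Le lanes, at 636 and 419 CPM in females and 515 and 529 CPM in males, also lay below every FSC lane. CPM use the plain UMI total, while the fitted ratios are scaled by trimmed means. Library size in place of that scaling moved the median of all genes by 0.55 for FSC against Le and S, and by 0.54 against L. This bears on every fitted ratio over Le, S and L. With all lanes summed, Vim levels ran in the order EC, FSC, Per, Le and PP, and no difference of FSC from the other 4 passed the limit. Per lay above FSC in females, at 1137 against 753 CPM, and below FSC in males, at 615 against 964 CPM.

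In HPC, by contrast, Vim lay at 7.64 CPM or less in C, G, S and L and at 78.2 CPM in T. The T value was uneven, since the lanes gave 168, 49.4, 109 and 16.5 CPM, 1 cell held 37 of the 77 UMIs, and 14.8% of T had a UMI. FSC exceeded T by a log2 ratio of 3.45 (SE 0.40, adjusted p = 1.51e-09) and S by 7.53 (SE 0.43, adjusted p = 1.07e-19).

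Gfap, the filament gene by which astrocytes are best known, gave 35 UMIs in 23 of all cells. None fell in the 2313 FSC. This zero is in part a matter of the rule, because a cell with both Gfap and S100b above threshold was moved to PP. No limit on the share of FSC with a UMI can therefore be drawn from it. With no PP cells taken out, 18 of 2363 FSC (0.762%, exact 95% interval 0.452 to 1.20) had a Gfap UMI, and with Gfap left out of the PP rule 8 of 2318 did (0.345%, interval 0.149 to 0.679), each with 1 UMI. Among all 2568 cells that met the FSC rule, before doublets and outliers were removed, 19 had a Gfap UMI, and 12 of these also had a UMI of Lhx2, Nkx2-1 or Rax. In the PP class, 18 cells (32.7%) held 29 Gfap UMIs at levels of 22.5 and 89.2 CPM in the female lanes and 53.1 and 44.4 in the male lanes. The female levels rest on 2 UMIs in 2 cells, neither of which had a UMI of Lhx2, Nkx2-1, Rax or Scn7a. Since Gfap chose some of the PP cells, its PP level is a description and was not tested. Of the PP cells before doublets were removed, 8 met the rule by Gfap and S100b alone.

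**Figure D2:**
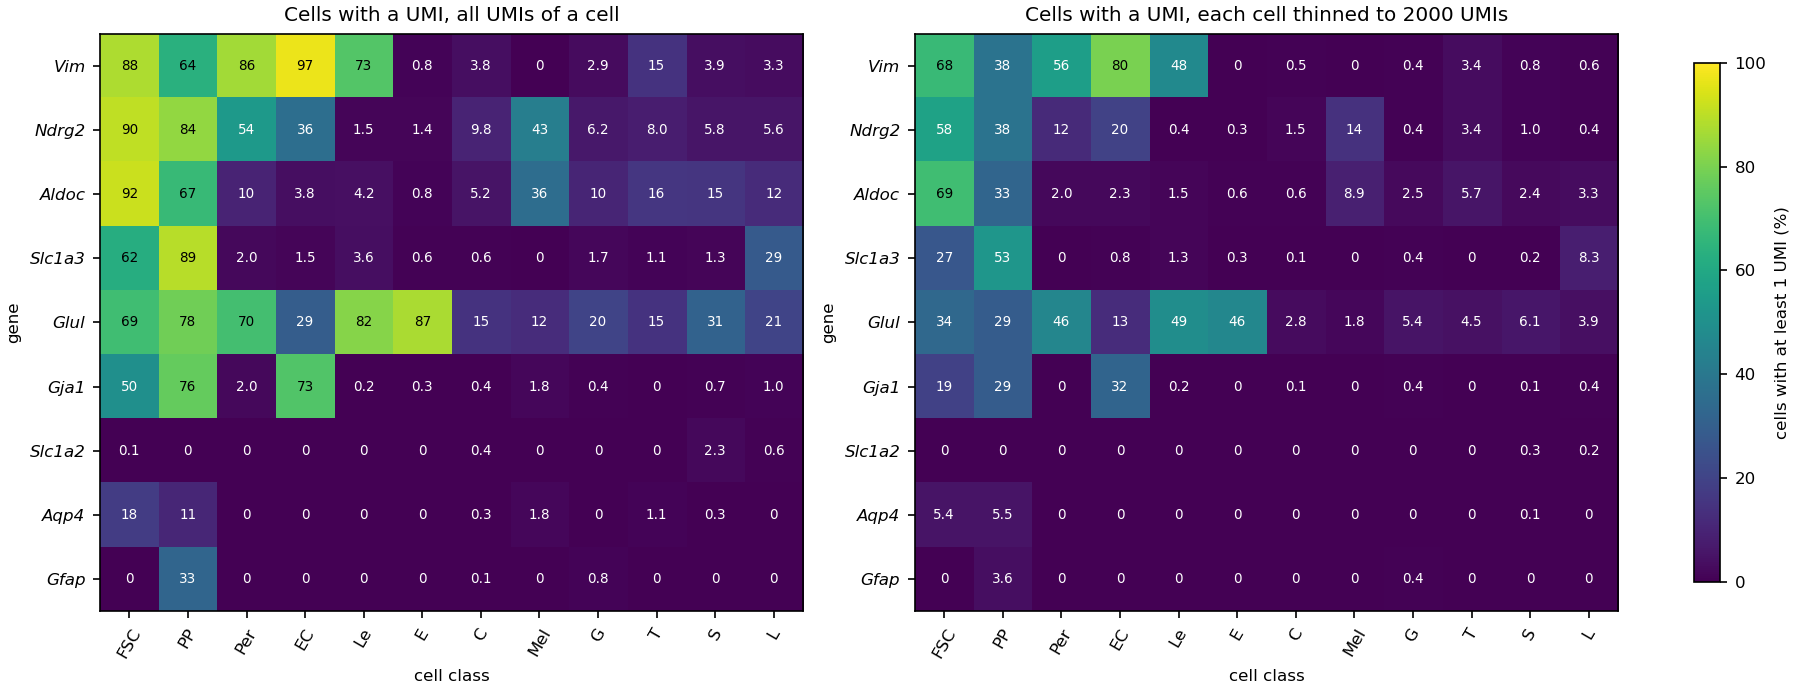
Percent of cells with at least 1 UMI of each glia-like gene by class, on the left with all UMIs and on the right after each cell was thinned to 2000 UMIs. Aldoc falls from 91.8% to 69.3% of FSC with thinning and from 15.4% to 2.38% of S, while Slc1a3 in L stays apart from the other HPC at 8.26%.

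The genes of glutamate uptake and conversion were split. Slc1a3, the glial glutamate and aspartate transporter gene, was found in most FSC and PP cells and, at a lower level, in lactotropes. Its level in FSC was 170 and 181 CPM in the female lanes and 149 and 150 CPM in the male lanes. PP lay at 356 and 406 CPM in the male lanes, above every FSC lane, and at 269 and 89.2 CPM in the female lanes with their 4 cells. The log2 ratio of FSC over PP was -0.95 (SE 0.27, adjusted p = 0.0140), short of the limit. Requiring Lhx2 or Nkx2-1 for PP, or leaving out the 2 female PP sums (an alternative chosen after the data were seen), brought it past the limit.

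L had Slc1a3 at 21.7 and 15.8 CPM in the female lanes and 49.4 and 53.2 CPM in the male lanes, against 0.537 to 1.42 CPM in C, G, T and S. FSC still exceeded L, by a log2 ratio of 1.84 (SE 0.25, adjusted p = 2.10e-08), a call that was lost with sums per sex and with DESeq2. A UMI of Slc1a3 was found in 28.5% of L (interval 24.5 to 32.8) at a median of 10207 UMIs per cell, and in 1.27% of S (interval 0.816 to 1.89) at a median of 13653.5 UMIs, so that the L share lay above that of the deeper S. Of the 138 L with a Slc1a3 UMI, 6.52% also had a UMI of S100b and 2.90% of Fxyd1, against 4.05% and 2.60% of the 346 L without. Aldoc had a UMI in 18.1% of the L with Slc1a3 and in 10.1% of those without. The part of FSC RNA in the L value was not tested. In Le the gene was at 14.6 and 20.4 CPM in the female lanes and at 0.964 and 3.23 CPM in the male lanes, from 20 cells.

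Slc1a2, the other glial glutamate transporter gene and the main forebrain one, was almost absent. It gave 64 UMIs in 64 cells of the whole table, 3 of them in FSC (0.130% of cells, interval 0.0268 to 0.379) and none in the 55 PP cells, where a count of 0 allows 5.45%. Most lay in S, at 1.74 and 1.66 CPM in the female lanes and 1.58 and 1.58 CPM in the male lanes, in 2.28% of cells (interval 1.65 to 3.06). Slc1a2 did not pass the filter on low counts and was not tested in the comparison of types. With no filter it was called lower in FSC than in S.

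Glul, the glutamine synthetase gene, was widely expressed and not led by FSC. Levels were even over lanes in FSC, at 204, 206, 225 and 211 CPM, with a UMI in 69.3% of cells. Le stood above them at 417 and 393 CPM in the female lanes and 328 and 327 CPM in the male lanes, with no overlap, and the log2 ratio of FSC over Le was -1.36 (SE 0.18, adjusted p = 7.70e-09). E were at 329, 376, 283 and 316 CPM, although globin filled 65.7% of their UMIs, and reached 955 CPM when globin was left out of the total. Per (log2 ratio -0.04, SE 0.24, adjusted p = 0.919) and PP (0.57, SE 0.24, adjusted p = 0.131) did not differ from FSC past the limit. EC were lower than FSC by a log2 ratio of 1.88 (SE 0.24, adjusted p = 8.02e-09). HPC levels were 14.2 to 31.5 CPM, so that FSC exceeded S, the highest of them, by a log2 ratio of 2.28 (SE 0.18, adjusted p = 1.05e-14). Thinned to 2000 UMIs, 49.2% of Le, 46.3% of E and 46% of Per had a Glul UMI, against 33.7% of FSC and 6.14% of S.

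Of the channel genes, Aqp4 was found in few FSC and PP cells and in hardly any other cell. Gja1 was shared with endothelium. Aqp4 was at 30.9 and 27.4 CPM in the female lanes of FSC and at 32.3 and 30.3 CPM in the male lanes, a spread of 2.08 (SD, n = 4 lanes) around 30.2. A UMI was seen in 17.6% of FSC (interval 16.1 to 19.2) and in 10.9% of PP cells, where the male lanes gave 22.8 and 20.5 CPM and the female lanes 0. No UMI of Aqp4 was found in EC, Le, Per, G, L or E. Against a floor of 3 UMIs over a class, FSC were at least 37.6-fold higher than Le, at least 63.4-fold higher than L and at least 11.7-fold higher than EC. The bound over Per was at least 3.64-fold, and that call was lost with any lane left out. The log2 ratio of FSC over S, where 6 UMIs were counted, was 6.21 (SE 0.37). It is given as a description, because Aqp4 could pass the filter on low counts through FSC alone. FSC and PP did not differ past the limit, with a log2 ratio of 0.81 (SE 0.46, adjusted p = 0.294) and an interval of -0.09 to 1.71.

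Gja1, the gene of the astrocyte connexin that also forms endothelial gap junctions, was at 104 and 101 CPM in the female lanes of FSC and 124 and 141 CPM in the male lanes. EC stood at 221, 254, 298 and 242 CPM, above every FSC lane, and the log2 ratio of FSC over EC was -0.95 (SE 0.17, adjusted p = 7.36e-06). When UMIs were summed per sex instead of per lane, this call was lost. PP, at 202 and 89.2 CPM in the female lanes and 235 and 208 in the male lanes, did not differ from FSC past the limit (log2 ratio -0.65, SE 0.21, adjusted p = 0.0359). Outside these classes Gja1 was close to the floor, with 0 UMIs in T and at most 2.77 CPM elsewhere. In S, 0.689% of cells had a UMI, against 49.9% of FSC, 72.9% of EC and 76.4% of PP cells.

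Aldoc and Ndrg2 were abundant in FSC and scarce in most other classes. Aldoc encodes the aldolase isoform of brain glycolysis, and its level in FSC was 856 and 955 CPM in the female lanes and 769 and 785 CPM in the male lanes, and FSC held 95.7% of the Aldoc UMIs of the cells used. That share was 96.3% for Aqp4, 93.8% for Ndrg2, 86.3% for Slc1a3, 83.3% for Gja1, 79.5% for Vim and 51.1% for Glul. It depends on the size of a class as well as on its level, and is no measure of specificity. Over all genes FSC held 18917858 UMIs, against 26406371 in S, 3723231 in Le, 1154718 in EC and 612255 in PP. PP were at 292 and 446 CPM in the female lanes and 258 and 280 CPM in the male lanes, with no overlap. The log2 ratio of FSC over PP was 1.81 (SE 0.21, adjusted p = 2.12e-08). Of the 15 alternatives, 13 kept this call, and it was lost with sums per sex and with a fit of FSC and PP alone. Other classes lay at 40.8 CPM (Mel) or lower, and log2 ratios ran from 5.34 (SE 0.28, adjusted p = 8.28e-20) over T to 7.36 (SE 0.25, adjusted p = 8.78e-27) over C. A UMI of Aldoc was found in 91.8% of FSC and 15.4% of S, and at 2000 UMIs per cell in 69.3% and 2.38%.

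Ndrg2, an astrocyte gene whose protein is related to hydrolases, was at 567 and 576 CPM in the female lanes of FSC and 391 and 393 CPM in the male lanes. It was spread more widely outside the hormone cells than Aldoc. Per (65.3 and 130 CPM in the female lanes, 170 and 129 in the male lanes) and EC (45.8 and 48.9, then 74.4 and 66.9) lay between FSC and HPC. FSC exceeded Per by a log2 ratio of 2.1 (SE 0.27, adjusted p = 3.07e-08) and EC by 3.23 (SE 0.24, adjusted p = 2.99e-15). The difference from PP was short of the limit (0.83, SE 0.22, adjusted p = 0.00912). HPC levels were 4.51 to 9.13 CPM. Mel, a class apart from HPC here, were at 54.9 CPM in males, where 44.4% of 54 cells had a UMI. S100b had a UMI in 50% of the 24 Mel with an Ndrg2 UMI and in 28.1% of the 32 without. For Fxyd1 these shares were 8.33% and 3.13%, and for Gstm2 4.17% and 6.25%. Vim and Slc1a3 had 0 UMIs in Mel. The part of FSC RNA in the Mel value was not tested.

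**Figure D3:**
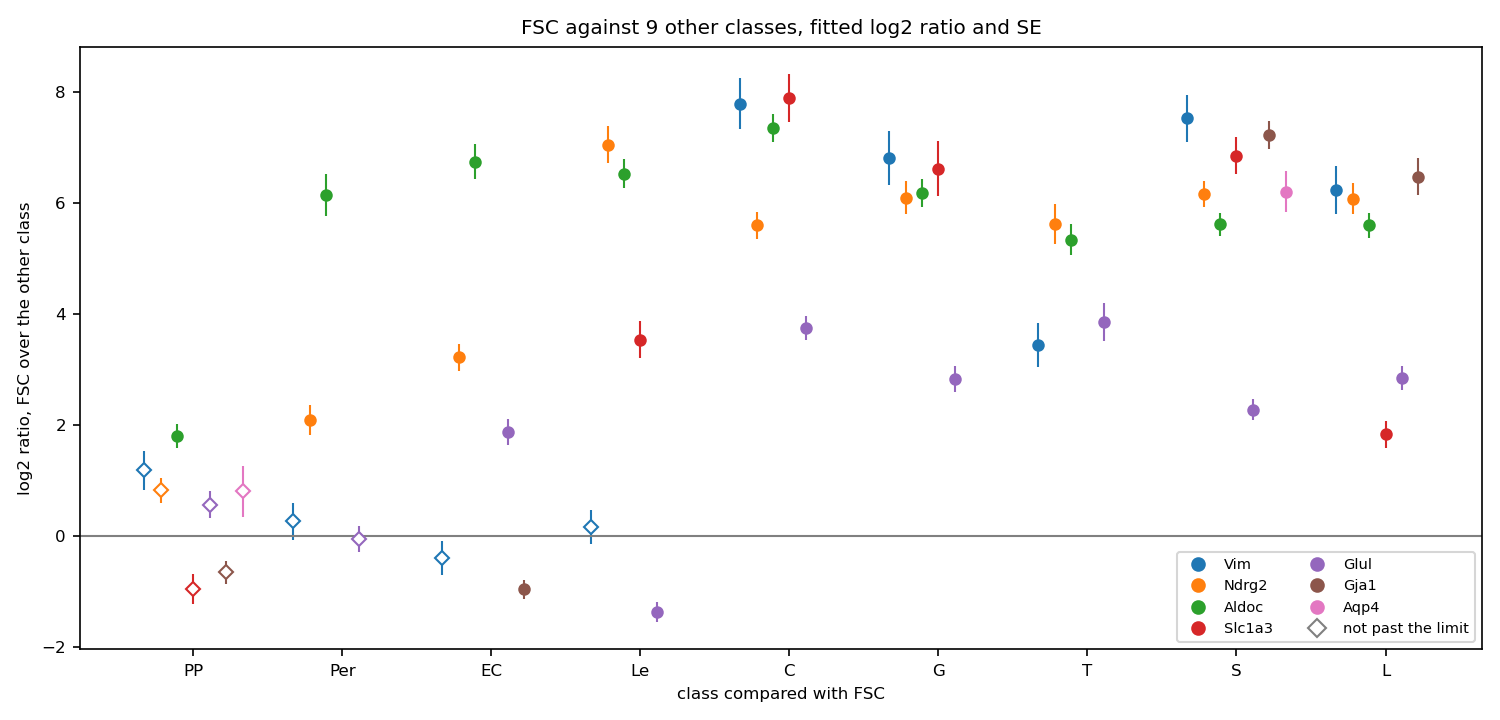
Fitted log2 ratio of FSC over 9 other classes for 7 members, with bars of 1 SE and open diamonds where the adjusted p was above 0.001. Points for a class with 3 or fewer UMIs of the gene are not drawn. FSC lie above C, G, T, S and L for each gene drawn, while Glul lies below 0 against Le and Gja1 against EC. Below 0 but short of the limit are Slc1a3 and Gja1 against PP, Vim against EC and Glul against Per.

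Of the 9 members, Slc1a2 failed the filter on low counts and Gfap passed it only through PP and was not tested, which left 7. FSC were higher than each of C, G, T, S and L for all 7, against 7.57% of the 11889 genes tested. They were higher than EC and Le as well for Aldoc, Ndrg2, Slc1a3 and Aqp4, against 3.36% of genes. Aqp4 and others could pass the filter through FSC alone, so these counts describe the members and are no support for the choice of them. Against EC, 5 members were higher in FSC (14.2% of genes) and 1 was lower (12%). Against Le, 5 were higher (23.7%) and 1 was lower (18.5%), and against Per 5 were higher (4.25%) and 0 were lower (5.32%). Against PP, 1 member was higher (1.45%) and 0 were lower (1.72%). The median log2 ratio of the 7 members was 3.23 over EC, against 0.28 for all genes, and 0.81 over PP, against 0.27 for all genes.

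PP were also set against EC. PP were higher for 5 members, Ndrg2, Aldoc, Slc1a3, Glul and Aqp4 (6.77% of genes were called higher), and lower for Vim (7.41% of genes were called lower). Slc1a3 was at 369 CPM in PP and had 2 UMIs in EC, at 1.73 CPM. The Glul difference (log2 ratio 1.31, SE 0.30, adjusted p = 7.25e-04) and the Vim difference (-1.58, SE 0.36, adjusted p = 6.30e-04) were past the limit in 4 and 7 of 13 alternatives. The Aqp4 call rests on 12 UMIs in 6 PP cells and none in EC. It was past the limit in 7 of 13, with an adjusted p of up to 0.0133, and was lost with any lane left out. Since Aqp4 could pass the filter on low counts through FSC alone, this call is a description and no support.

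Few FSC showed many members together at a fixed depth, a count that the thinning itself lowers. Slc1a3, for 1, had a UMI in 62.4% of FSC with all UMIs and in 27.0% when thinned. Gfap and Slc1a2 had a UMI in 0% of thinned FSC, for Gfap in part because of the PP rule. A member not seen in a cell at this depth may still be expressed there. Thinned to 2000 UMIs, a median of 3 of the 9 genes had a UMI in an FSC, 30.9% of FSC had at least 4, and 3.85% had none. The share with at least 4 was 18.2% of PP cells and 2.26% of EC, and 0 of the cells of every other class. At the same depth, of FSC with an Aldoc UMI 62.8% had an Ndrg2 UMI, against 46.4% of those without, and the share with Gja1 was 19.7% against 18.2%. Aqp4 was seen in 5.81% of FSC with a Vim UMI and in 4.68% of those without, but in 3.69% of FSC with a Slc1a3 UMI and 6.10% of those without, and in 4.94% and 5.57% with and without Gja1. These are counts over cells of 4 lanes and were not tested.

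Across 12 classes in each sex, which gave 24 sums, each member was compared with the 8138 genes that reached 50 CPM in some class, by Pearson correlation of log2(CPM + 1). The points share lanes and depth, and the female PP and Mel sums rest on 4 and 2 cells, so the values describe likeness alone. Vim was most like Pxdc1 (r = 0.969), Cd302 (0.952) and Rras (0.940), and Ndrg2 most like Gstm5 (0.956), Vcl (0.936) and Ephx1 (0.933). Aldoc was nearest to Penk (0.946), the proenkephalin gene, then Aldh3a1 (0.930) and S100a1 (0.919). Slc1a3 followed Phgdh (0.865), the entry enzyme of serine synthesis, Aldh1a7 (0.864) and Sox9 (0.862). Aqp4 followed Mlc1 (0.935), whose protein sits with the water channel in astrocyte membranes, Egfl6 (0.926) and Tnnc2 (0.893). Gja1 followed the endothelin receptor gene Ednrb (0.952), Apln (0.943) and RGD1310587 (0.922), and Glul followed Nudt4 (0.804), Gpx1 (0.798) and Hscb (0.784). Between members, r was highest for Aldoc and Ndrg2 (0.844) and lowest for Glul and Aqp4 (0.242).

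FSC were not uniform in these genes. Clustering with the 9 members left out of the variable genes gave 6 clusters at a resolution of 0.5 (4 at 0.2 and 11 at 1), described here without a test because the clusters come from the same cells. Cluster 1 (689 cells, 50.1% female), led by Fam46b, Cldn3, Rab25, Igfbpl1 and Krt7, had Aldoc at 382 CPM, Vim at 397, Gja1 at 74.8 and Glul at 123. Clusters 2, 3 and 4, with 574, 536 and 465 cells, had Aldoc at 1083, 943 and 1443 CPM, Vim at 1142, 1118 and 985, Gja1 at 158, 143 and 128, and Glul at 235, 289 and 291. In each lane with 20 or more cells, Aldoc in cluster 1 (339 to 419 CPM) lay below the level in the other 3 (667 to 1490 CPM). Gpha2 was at 238 CPM in cluster 1 and at 2618, 2680 and 7244 CPM in clusters 2 to 4, and Krt7 was at 29.2 CPM in cluster 1 and at 0.748 CPM or less in those 3.

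Aqp4 did not follow this split. It was at 28.4, 34.0, 25.4 and 27.9 CPM in clusters 1 to 4, and its highest level, 120 CPM with a UMI in 58.8% of cells, was in cluster 6, 17 cells led by RGD1565611, Tmem212, LOC680885, RGD1562658 and Car3. Cluster 5, 32 cells led by the division genes Cdca3, Ube2c, Cenpf, Top2a and Cks2, had the highest Vim (1613 CPM) and the lowest Ndrg2 (134 CPM) and Aldoc (224 CPM). Its cells and those of cluster 6 were deep, at medians of 13289.5 and 16107 UMIs. Cluster 2 was 6.27% female and cluster 4 was 86.7% female, so that members in these reflect sex, pool and age as well.

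**Figure D4:**
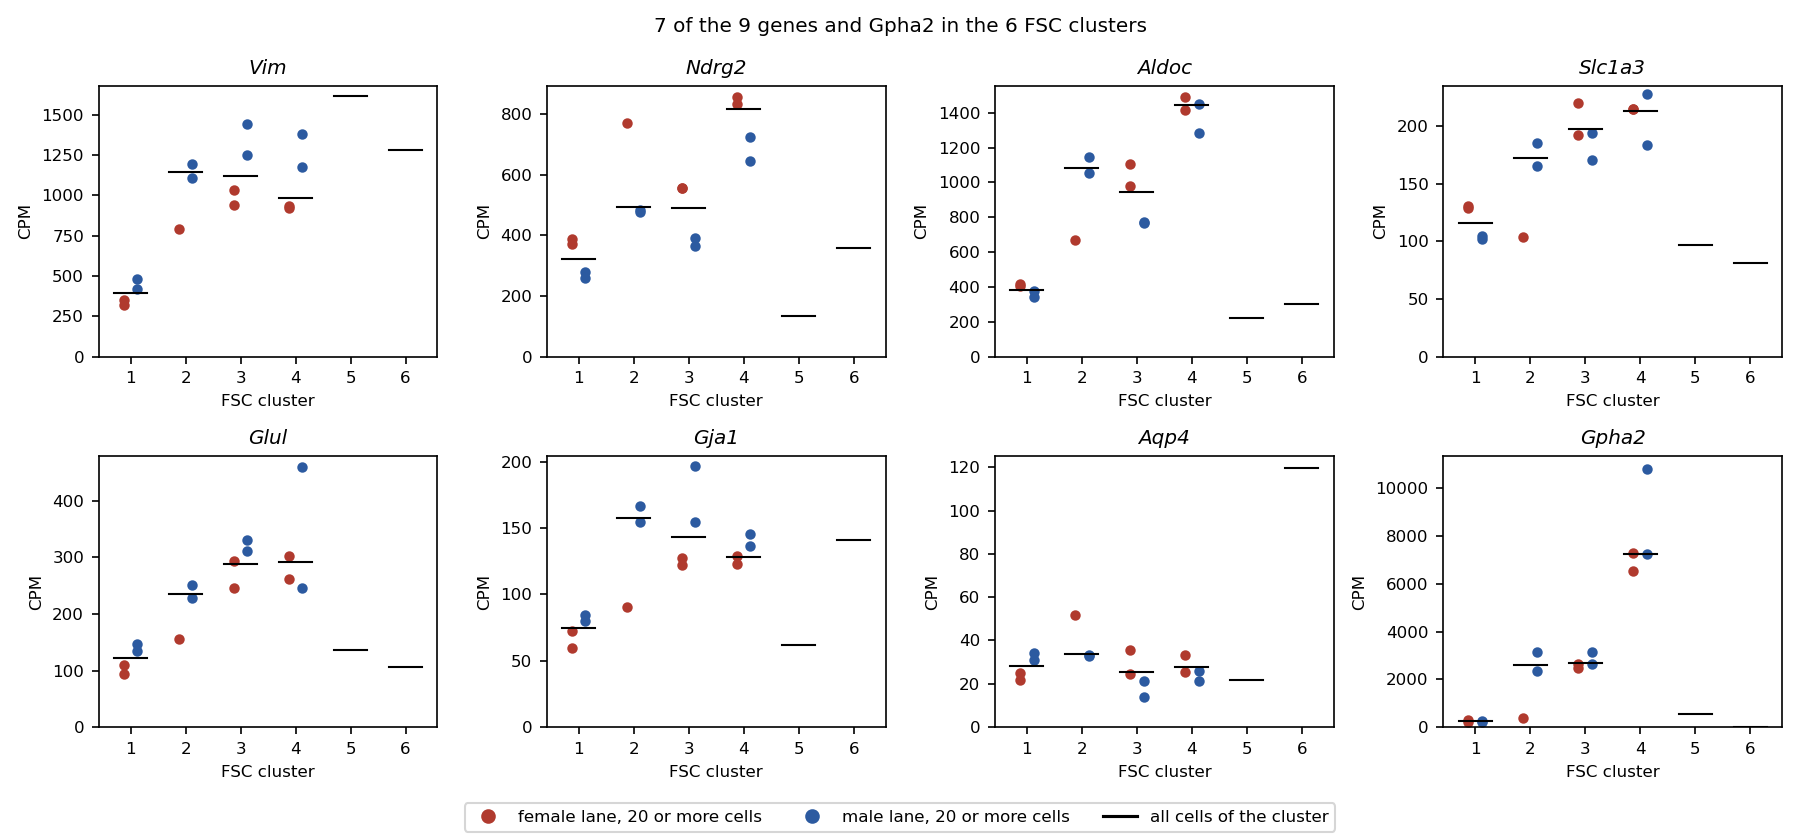
CPM of 7 members and of Gpha2 in the 6 FSC clusters, with a point for each lane with 20 or more cells (red female, blue male) and a bar for all cells of a cluster. Aldoc, Vim, Gja1 and Glul are lower in cluster 1 than in clusters 2 to 4, and Aqp4 is highest in cluster 6 at 120 CPM.

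Between the sexes, Ndrg2 was higher in FSC of the female pool and Vim higher in FSC of the male pool. Ndrg2 was at 567 and 576 CPM in females and 391 and 393 CPM in males, and the log2 ratio of males over females was -0.58 (SE 0.05, adjusted p = 2.88e-07). Vim was at 741 and 765 CPM in females and 980 and 948 CPM in males, a log2 ratio of 0.32 (SE 0.04, adjusted p = 9.62e-05). Thus 1 member was higher in males (1.13% of 12894 genes tested) and 1 lower (1.81%). The lanes of the sexes did not overlap for either gene, which 2 lanes against 2 can often give without a difference. Without the low-count filter both fell short of the limit, and Vim did so also without the female lane with 1868 cells or the male lane with 2047 cells, with an adjusted p of up to 0.00809 over the alternatives. Aldoc (-0.26, SE 0.05, adjusted p = 0.00275), Slc1a3 (-0.28, SE 0.06, adjusted p = 0.00917) and Gja1 (0.33, SE 0.08, adjusted p = 0.0107) stayed short of the limit. Glul (0.04, SE 0.06, adjusted p = 0.698) and Aqp4 (0.06, SE 0.12, adjusted p = 0.800) had the smallest ratios.

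Within clusters of FSC, the lanes of the sexes were apart in the same direction for both Ndrg2 and Vim in 3 of the 4 large ones. The clusters hold the same cells in which these 2 genes passed the sex test. The values by cluster are therefore a description and no second support for that test. In cluster 1, Ndrg2 was at 373 and 386 CPM in the female lanes and 280 and 258 CPM in the male lanes, and Vim at 321 and 349 CPM against 482 and 417. In cluster 3, Ndrg2 was at 557 and 556 CPM in females and 392 and 365 CPM in males, and Vim at 1034 and 937 CPM against 1441 and 1250. The lanes of the sexes did not overlap there, nor in cluster 4. In cluster 2, whose female lanes held 23 and 13 cells, Vim was at 790 and 1260 CPM in females and 1107 and 1194 CPM in males, which overlapped. Ndrg2 did not overlap in that cluster, at 770 and 600 CPM in females and 477 and 483 CPM in males.

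**Figure D5:**
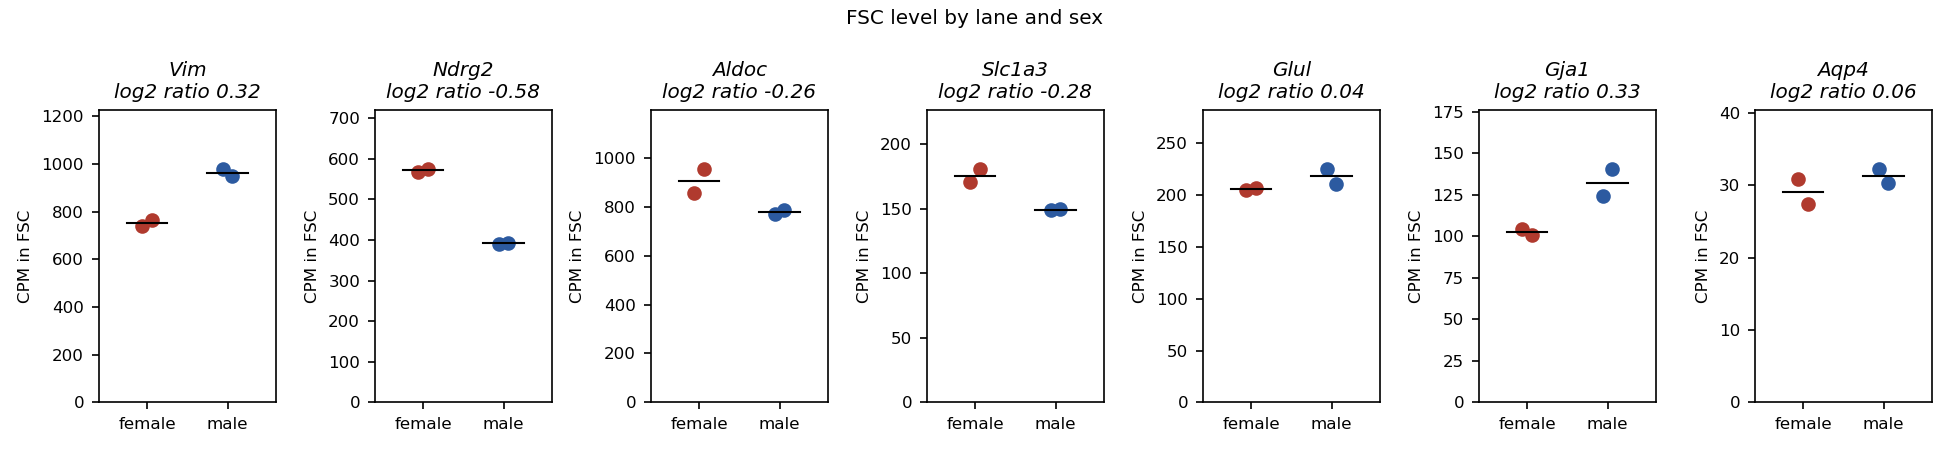
CPM of 7 members in FSC for the 2 female and 2 male lanes, with a bar at the mean of 2 lanes and the fitted log2 ratio of males over females above each panel. Ndrg2 is lower and Vim higher in both male lanes.

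In EC the sex values of Vim ran the other way, at 1459 and 1385 CPM in the female lanes and 978 and 1199 CPM in the male lanes (log2 ratio -0.43, SE 0.13, adjusted p = 0.104). The difference between the sex ratios of FSC and EC was 0.80 (SE 0.12, adjusted p = 7.77e-04, edgeR interaction contrast), with 0.0324% of genes called in that direction. It was lost when any of 3 lanes was left out, the female lane with 1868 cells or either male lane, and the adjusted p ranged up to 0.111. For Ndrg2 the difference was -1.10 (SE 0.32, adjusted p = 0.190). Outside FSC, the member past the limit between the sexes was Glul in S, at 22.5 and 23.3 CPM in females and 38.4 and 36.2 CPM in males (5.1% of genes were called higher in males; log2 ratio 0.65, SE 0.11, adjusted p = 1.68e-05), a call lost without either female lane and with DESeq2. In L the Slc1a3 levels given above corresponded to 0.80 (SE 0.23, adjusted p = 0.00506), where the median of all genes moved by 0.65 when library size replaced the scaling by trimmed means.

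Other genes of the same functions were taken from lists. The counts below stand beside 14.2% of all genes tested called higher in FSC than in EC and 12% called lower, 1.45% called higher than in PP and 1.72% called lower, and medians of all genes of 0.28 over EC and 0.27 over PP. Genes such as Mlc1 and Slc4a4, with 0 UMIs in EC, could pass the low-count filter through FSC or PP alone. These counts and medians therefore describe the lists and are no support for the choice of them. Of 16 genes of glutamate, GABA and glutamine handling, 7 were tested. Against EC, 1 was higher in FSC, the serine and glycine exchanger gene Slc7a10 (18.7 CPM in FSC and 0.866 in EC), and 3 were lower, among them Slc38a2 and Glud1. The share of 1 in 7 higher was close to that of all genes, and the median log2 ratio was -0.86, against 0.28 for all genes. None differed from PP past the limit, and Abat, the GABA transaminase gene, was at 54.8 CPM in FSC and 53.9 in PP.

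Of 14 genes of water, potassium and ion handling, 10 were tested, and 6 were higher in FSC than in EC (among them Atp1b2, Slc4a4, Mlc1 and Hepacam) and 2 lower (Slc12a2 and Aqp1), with a median log2 ratio of 2.80, against 0.28 for all genes. Mlc1 was at 37.8 CPM in FSC and had no UMI in EC. The other aquaporin gene Aqp1 stood at 107 CPM in EC and 1.22 CPM in FSC. Slc12a2, a sodium, potassium and chloride cotransporter gene, was at 17.2 CPM in FSC and 150 CPM in PP (log2 ratio -2.91, SE 0.32, adjusted p = 4.43e-09). Dag1 was at 54.6 CPM in FSC and 58.9 CPM in EC.

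Of the 23 paralogues found of the 9 members, 10 were tested, and none was higher in FSC than in EC while Aqp1 and Gja4 were lower, with a median of -0.16, against 0.28 for all genes. Aldoa, the ubiquitous aldolase gene, was at 466 CPM in FSC, 590 in PP, 680 in EC and 729 in S, and it was lower in FSC than in S. Ndrg1 was at 41.7 CPM in FSC and 43.3 in EC, Slc1a5 at 10.7 and 9.53, and the connexin gene Gjc1 at 10.5 and 18.2. None differed between FSC and PP past the limit.

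Of 13 genes of intermediate filaments and linkers, 12 were tested. Higher in FSC than in EC were the epithelial keratin genes Krt18 (278 CPM against 3.46) and Krt8 (209 against 1.73), the neurofilament genes Nefl (174 against 3.46) and Nefm, and the lamin gene Lmna (140 against 82.3), and Nes, the nestin gene, was lower (0.0529 against 36.4 CPM). The median of the 12 was 0.49 over EC, against 0.28 for all genes. Synm, whose product joins vimentin and Gfap filaments, was lower in FSC than in PP (6.82 against 42.5 CPM, log2 ratio -2.28, SE 0.47, adjusted p = 5.79e-04).

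Of 24 genes of astrocyte metabolism and secretion, 22 were tested, and 13 were higher in FSC than in EC (14.2% of all genes) with a median of 1.72, against 0.28 for all genes. These were Mt2A, Mt3, Mt1m, S100a1, Cpe, Cryab, Phgdh, Psat1, Ldhb, Gpm6a, Gpm6b, Acsl3 and Slc2a1, and Sparc was lower. The brain metallothionein gene Mt3 was at 3454 CPM in FSC, 2643 in PP and 30.3 in EC. Apoe was at 3477 CPM in FSC, 10871 in PP and 4767 in EC, and Cst3 at 2934, 21409 and 907 CPM, none of which passed the limit for FSC. Cryab (386 CPM in FSC and 62.1 in PP, log2 ratio 2.81, SE 0.28, adjusted p = 6.56e-10), Mt1m and S100a1 were higher in FSC than in PP.

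Of 24 genes for glial transcription factors and receptors, 21 were tested. Higher in FSC than in EC were 9, Nfia, Nfix, Ntrk2, Id4, Sox2, Sox9, Gpr37l1, Ttyh1 and Fgfr3, and 5 were lower, Id3, Ednrb, Notch1, Fabp5 and S1pr1, against 14.2% and 12% of all genes. The median was 0.99, against 0.28 for all genes. It is the ratio of Bmpr1b (SE 2.11), which had 2 UMIs in FSC and 0 in EC. Sox2 was at 204 CPM in FSC and 220 in PP, and Sox9 at 188 and 235. Hes1 was at 696 CPM in FSC and 503 in EC, and Nfib at 324 and 316. Against PP, the endothelin receptor gene Ednrb was higher in FSC (70.6 against 21.2 CPM) and Bmpr1b lower (0.106 against 22.9 CPM), and the median was -0.14, against 0.27 for all genes.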

How the data were processed

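The authors made the deposited counts with Cell Ranger 2.1 from 10x Genomics 3′ libraries, as UMI counts per gene and cell in 1 table of 4 lanes. They aligned reads to an NCBI rat annotation with extended 3′ ends and subsampled reads to equal mapped reads per cell over lanes. Lanes were told apart by the barcode suffix and assigned to a sex by the cell numbers the study gives. From these counts, cells were typed as in the study: Otsu thresholds per gene and sex, 2 markers per type (1 for S and L), nearest-neighbour typing for 221 cells of unclear type, and a synthetic doublet test (191 cells). Haemoglobin genes were matched as Hba1 and Hba2, and 1 pericyte gene was not used here. UMIs were summed per class and lane and fitted with edgeR 4.0.16 (trimmed-mean scaling, low-count filter at 10, lane as covariate, two-sided quasi-likelihood test, Benjamini-Hochberg over all genes of a contrast, limit 0.001). E and Mel were not fitted. Within each class the sexes were compared over 2 and 2 lanes. Shares carry exact Clopper-Pearson 95% intervals, which, like the floor of 3 counts, cover counting error only. The SE of a log2 ratio was taken as its absolute value divided by the square root of the quasi-likelihood F. Intervals of log2 ratios are 1.96 SE and approximate. DESeq2 1.42.0 and other settings were alternatives. FSC were clustered with scanpy 1.11.5 and Leiden at resolution 0.5. The fits were tested on simulated data. The text names the 9 members throughout, and of each list the 4 genes highest in FSC and those called against EC or PP, and the 3 genes most like each member, while the genes whose values are printed were chosen after they were seen. Some list genes are counted but not reported here by name. The members and lists were chosen with earlier results of these data known.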

Additional observations from a re-analysis of the deposited data

Results flagged for a closer look

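The sex ratio of Vim (log2, males over females) differed between FSC and EC by 0.80, because both male FSC lanes lay above both female ones while both male EC lanes lay below. This was a test of the difference itself and compares 1 pool of each sex. Outside the fitted classes, Glul had a UMI in 46.3% of erythrocytes at 2000 UMIs, above the 6.14% of S. Ndrg2 had a UMI in 14.3% of the 56 melanotropes at 2000 UMIs, above 1.01% of S. No group held enough lanes for a check of single outlying lanes.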

How the results depend on the processing

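No paired analysis was possible because the barcodes carry lane numbers but no replicate numbers that are shared between the sexes. No log2 ratio of a member past the limit changed sign under any alternative run.

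Against PP, 1 member was higher in FSC; 0 were with sums per sex or a fit of 1 pair of types, and 3 were with no low-count filter. None was lower, and 1 was with Lhx2 or Nkx2-1 required, or with the female PP sums left out, a setting chosen after seeing the data. Genes called between FSC and PP numbered 377, and 822 with Lhx2 or Nkx2-1 required, 48 with sums per sex, 797 with no filter, 201 with 1 pair per fit and 646 without the female PP sums. They numbered 82 without the male lane with 2085 cells and 105 without that with 2047 cells, and leaving out any lane gave 82 to 455. Against EC the count of 1 member lower fell to 0 and the genes called from 3121 to 1763 with sums per sex (2383 to 2431 with a lane left out). Against S, 1 member was lower with no filter. Against Per, 4 of the 5 members stayed past the limit whichever lane was left out.

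PP were higher than EC for 5 members, and for 3 without Gfap in the rule, with sums per sex or with any lane left out. The 1 lower member, Vim, fell short with sums per sex, library size scaling, the female PP sums left out, and 3 of the 4 lanes left out (0 to 1).

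In FSC by sex, no filter gave 0 members higher and 0 lower in males. Leaving out a lane gave 0 to 1 higher and 1 to 2 lower; Vim was lost without the female lane with 1868 cells or the male lane with 2047 cells. Genes called numbered 379, then 28 with no filter, 222 by DESeq2 and 266 to 624 with a lane left out, highest without the female lane with 1861 cells. The sex effect in FSC minus EC held 1 member, or 0 to 1 with a lane left out. Genes called fell with sums per sex from 1137 to 559 against Per, 4750 to 2795 against C, 3545 to 1886 against G, 2537 to 1210 against T, 5361 to 3275 against S, 4175 to 2371 against L (2231 with 1 pair per fit) and 1686 to 716 for PP against EC. Without the male lane with 2047 cells they were 659 against Per, 1574 against T and 912 for PP against EC, which gave 919 without the male lane with 2085 cells. The cause of these changes was not tested. Library size scaling moved the median of all genes by up to 0.55 between types, for FSC against Le and S, and by 0.54 against L. Between the sexes in L it moved by 0.65. FSC formed 4, 6 and 11 clusters at resolutions of 0.2, 0.5 and 1, and Aldoc in the large cluster with the highest Krt7 was at 379.8, 382 and 486 CPM.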
